A study of Mus musculus with 4 samples.

Results

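Cerebellins are small secreted proteins of the C1q family that join the 2 sides of a synapse. They are released by the presynaptic neuron and bind neurexins on its membrane and delta glutamate receptors on the postsynaptic cell. In the cerebellum, granule cells release Cbln1 along their parallel fibres onto Purkinje cells, and mice that lack it lose many of these synapses. The genes described here are the 4 cerebellins Cbln1, Cbln2, Cbln3 and Cbln4 and the delta receptor gene Grid1. They were taken as every row of the value table that the array's annotation assigns to exactly one of these symbols, which gave 1 row for each of the 5 genes, of 19938 genes in all.

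Ketamine, an anesthetic and drug of abuse that blocks the NMDA type of glutamate receptor, was injected intraperitoneally each day at 30 mg/kg into ICR mice, and control mice received normal saline. According to the methods the mice were 1 month old at the start, were treated for 3 months and were tested in a water maze before the prefrontal cortex was dissected. RNA from 2 mice per group was measured with Affymetrix Mouse Gene 1.0 ST arrays, 1 array per mouse, and the values are log2 expression levels. The labels give the treatment of each array in opposite ways: the titles name as saline the arrays whose source field says ketamine, and the reverse. The groups are named here by title, so each direction would turn if the source field were right. The labels give female mice and the methods male mice.

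Of the 21789 rows with 1 gene symbol, 33.2% passed an adjusted p of 0.05 in limma, 23.4% with the arrays titled ketamine higher and 9.71% with them lower, so a call by itself does not set a gene apart here. After quantile normalization 3311 rows were higher and 3074 lower, against 5109 and 2115 as deposited, and the median difference of all rows moved from 0.13 to 0.01 on the log2 scale. The arrays titled ketamine carried the markers of cerebellar neurons. All 10 granule cell markers were higher (median log2 difference 2.30, summed linear level from 775 to 967 on the arrays titled saline and from 8196 to 8916 on those titled ketamine), with Neurod1 at 4.48. Gabra6 was at 6.62, but at 8.35 without titled saline array 1 and 4.90 without titled saline array 2, and it missed the threshold under trend and robust moderation (adjusted p = 0.106 in limma). All 6 measured Purkinje cell markers were higher (median 3.22, summed level from 1010 to 1281 against 6892 to 7649), with Ppp1r17 at 5.56. Car8 was at 4.30, but at 5.02 and 3.58 without titled saline array 1 and 2, and missed the threshold under trend and robust moderation (adjusted p = 0.0536 in limma). On titled saline array 2, Gabra6 at 3.28 and Ppp1r17 at 3.92 lay below the 95th percentile of 1023 olfactory receptor rows (4.43), so the sizes of their differences are uncertain. Of 7 forebrain projection neuron markers 6 were lower (median -3.50, summed level from 5726 to 5777 against 1380 to 1437), and Tbr1 and Neurod6, at 3.69 to 4.01 on the arrays titled ketamine, also lay below that percentile there (4.56 and 4.46). Of 7 somatostatin interneuron markers 4 were lower (median -0.88), of 6 thalamus markers 3 were lower (median -0.41), of 7 choroid plexus markers 6 were higher (median 0.67), of 6 oligodendrocyte markers none passed (median 0.10, 0 at an unadjusted p under 0.05 and 1 passing with trend and robust moderation) and all 7 microglia markers were lower (median -0.80). Apart from the oligodendrocyte markers, these lists differed between the same groups of arrays as the members below. Treatment, dissected tissue and cell make-up therefore cannot be told apart, nor can fewer cells of a type and less RNA per cell.

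Cbln1 and Cbln3, the cerebellins of cerebellar granule cells, were far higher on the arrays titled ketamine, while Cbln2 and Cbln4, which are expressed in forebrain neurons among others, and Grid1 were lower. The 2 genes that were higher and the 3 that were lower all passed limma with Benjamini-Hochberg adjustment over all rows. No member's groups overlapped, which was also true of 69.9% of all rows, 48.4% with the arrays titled ketamine higher and 21.5% with them lower. All 5 members lay above the 95th percentile of the olfactory receptor rows on each of the 4 arrays. Cbln3 did so only narrowly on titled saline array 2, at 4.52 against 4.43, so the size of its difference is uncertain.

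**Figure D1:**
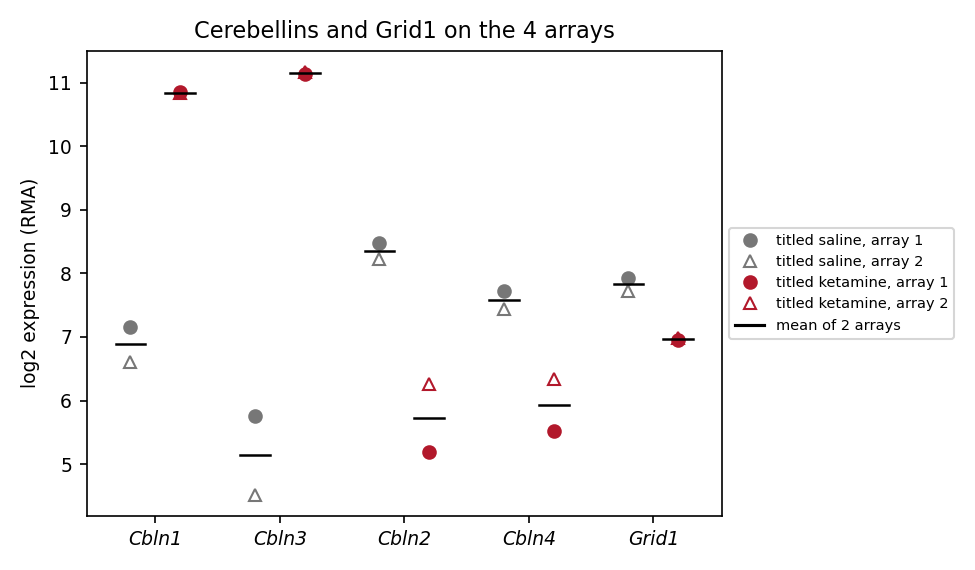
Log2 expression (y axis) of the 4 cerebellins and Grid1 (x axis) by array, with titled saline in grey and titled ketamine in red, filled circles for array 1 and open triangles for array 2. Bars are the means of 2 arrays; Cbln1 and Cbln3 sit near 11 on both arrays titled ketamine, and Cbln2 and Cbln4 are spread there between array 1 and array 2.

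Cbln3, which is made almost only in granule cells and leaves the cell only when assembled with Cbln1, read 5.75 and 4.52 on titled saline arrays 1 and 2 and 11.13 and 11.17 on titled ketamine arrays 1 and 2. Both arrays titled ketamine were high and nearly equal, and the 2 arrays titled saline were low and apart from each other. The group means were 5.14 ± 0.872 (SD, n = 2) and 11.15 ± 0.0276 (SD, n = 2). The log2 difference was 6.01 (95% interval 5.20 to 6.82, adjusted p = 5.16e-05 from limma), a 64.4-fold higher level, and was 6.62 without titled saline array 1 and 5.39 without titled saline array 2. It was the second largest positive difference among the 21789 rows.

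Cbln1, the organizer of parallel fibre synapses, read 7.16 and 6.61 on the arrays titled saline and 10.85 and 10.83 on those titled ketamine. The groups lay 3.67 apart at their nearest arrays, while the arrays titled ketamine differed by 0.0198 from each other. The means were 6.88 ± 0.387 (SD, n = 2) and 10.84 ± 0.014 (SD, n = 2). The log2 difference was 3.96 (95% interval 3.54 to 4.38, adjusted p = 2.84e-05 from limma), a 15.5-fold higher level and rank 10 of the positive differences.

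Cbln2, a cerebellin of cortical and other forebrain neurons, read 8.48 and 8.23 on the arrays titled saline and 5.19 and 6.25 on those titled ketamine. Both arrays titled ketamine were lower than either titled saline, but array 2 was 1.07 above array 1. The means were 8.36 ± 0.180 (SD, n = 2) and 5.72 ± 0.756 (SD, n = 2). The log2 difference was -2.64 (95% interval -3.36 to -1.91, adjusted p = 0.00102 from limma), a 6.21-fold lower level, and it ranked 55 among the negative differences. It was -2.10 without titled ketamine array 1 and -3.17 without array 2.

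Cbln4, which is known from somatostatin interneurons of the cortex and binds the netrin receptor Dcc as well as neurexins, read 7.72 and 7.44 on the arrays titled saline and 5.52 and 6.34 on those titled ketamine. As with Cbln2, both arrays titled ketamine were low and array 2 was the higher of them, by 0.818. The means were 7.58 ± 0.200 (SD, n = 2) and 5.93 ± 0.579 (SD, n = 2). The log2 difference was -1.65 (95% interval -2.24 to -1.06, adjusted p = 0.00309 from limma), a 3.14-fold lower level.

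Grid1 encodes the delta receptor GluD1, the postsynaptic partner of cerebellins at many forebrain synapses. It read 7.93 and 7.73 on the arrays titled saline and 6.95 and 6.98 on those titled ketamine. The gap of 0.751 between the groups was larger than the 0.196 between the arrays titled saline and the 0.0301 between those titled ketamine. The means were 7.83 ± 0.139 (SD, n = 2) and 6.97 ± 0.0213 (SD, n = 2). The log2 difference was -0.86 (95% interval -1.14 to -0.59, adjusted p = 0.0018 from limma), a 1.82-fold lower level and the smallest difference of the 5 members.

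With 2 arrays against 2 an exact permutation test cannot go below a two-sided p of 0.333, and the limma p-values rest on the spread within 2 pairs of arrays. Without titled ketamine array 1 no row passed, the members having adjusted p-values from 0.128 to 0.143 in limma, and without titled ketamine array 2 none passed either (0.102 to 0.127 for the members). In these 2 fits 5974 and 6461 rows, each member among them, had an unadjusted p under 0.05. Cbln4 also missed the threshold without titled saline array 1 (adjusted p = 0.0557 in limma). Each member kept its direction in every fit.

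Of the 5 members, only the promoters of Cbln3 and Cbln4 were taken from the RefSeq table of promoters. Those of Cbln1, Cbln2 and Grid1 were not examined. The 250 bases before the start sites of Cbln3 and Cbln4 are shown, and these 2 cerebellins moved in opposite directions. Both lie on the minus strand of GRCm38.p6 and are written 5′ to 3′ along the gene, that of Cbln3 from chr14:55884257-55884506 and that of Cbln4 from chr2:172043467-172043716.
Cbln3: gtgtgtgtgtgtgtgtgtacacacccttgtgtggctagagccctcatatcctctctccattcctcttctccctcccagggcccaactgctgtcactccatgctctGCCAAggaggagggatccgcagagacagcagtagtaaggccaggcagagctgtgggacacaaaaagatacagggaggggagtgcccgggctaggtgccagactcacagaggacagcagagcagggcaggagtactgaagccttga
Cbln4: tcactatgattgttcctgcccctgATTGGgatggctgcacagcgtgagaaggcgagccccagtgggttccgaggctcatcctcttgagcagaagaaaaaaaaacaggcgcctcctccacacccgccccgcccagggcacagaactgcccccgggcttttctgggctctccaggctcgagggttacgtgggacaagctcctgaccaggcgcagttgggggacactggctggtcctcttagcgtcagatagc
Capitals mark matches on either strand to 5 motifs that were searched by their letters. The motifs were the E-boxes CAGATG and CAGCTG that are bound by basic helix-loop-helix factors, the NFI motif TTGGC, the CCAAT box and the TATA box TATAAA. Matches to TTGGC and to the reverse of CCAAT share 4 letters and can overlap. Cbln3 held 1 match to TTGGC on the opposite strand, which begins 145 bases before the start, and 41.5% of 32851 promoter windows of this length held this motif. Cbln4 held 1 match to CCAAT on the opposite strand, 226 bases before the start, and 33.9% of windows held it. The letters of CAGATG (14.4% of windows), CAGCTG (13.0%) and TATAAA (12.4%) were in neither window. The 2 windows differed in CG dinucleotides, with 2 in Cbln3 and 11 in Cbln4 against a median of 6, while their GC contents were 57.6% and 60.8%.

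Presynaptic receptors of cerebellins were lower or did not pass. Of 4 measured genes 2 were lower and 2 did not pass, with a median log2 difference of -0.24 against 0.13 over all rows, of which 9.71% were lower. Dcc, the netrin receptor that binds Cbln4, read 7.35 and 7.06 on the arrays titled saline and 5.43 and 5.32 on those titled ketamine. Its log2 difference was -1.83 (adjusted p = 0.000127 from limma). Its groups lay farther apart than the arrays within either group. Nrxn3, a neurexin, was lower by a log2 difference of -0.49 (limma adjusted p = 0.0210). That call was lost when all rows of the table were fitted (adjusted p = 0.0625) and without titled saline array 1 or 2 (0.0882 and 0.0952). The log2 difference of Nrxn2 was 0.07 (95% interval -0.18 to 0.32) and that of Neo1, a receptor related to Dcc, 0.01 (95% interval -0.25 to 0.27), and both turned below 0 after quantile normalization or median centring.

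Genes listed for proteins that bind delta receptors, or are linked to them, inside the postsynaptic cell went both ways. Of 6 measured genes 4 were higher, 1 was lower and 1 did not pass, with a median log2 difference of 0.50. Over all rows the median was 0.13, with 23.4% higher and 9.71% lower. After median centring 2 of the 6 genes were higher and 1 lower. Grid2ip encodes delphilin, a scaffold of Purkinje cell synapses, and it read 5.06 and 4.95 on the arrays titled saline and 6.93 and 6.78 on those titled ketamine. Its log2 difference was 1.85 (adjusted p = 7.32e-05 from limma), in the direction opposite to Grid1. The 2 measured Shank scaffolds of the postsynaptic density moved apart, with Shank2 higher by 1.53 (adjusted p = 0.000119) and Shank1 at -0.95 (adjusted p = 0.000858), and the 3 rows of Shank2 gave 2.16, 1.53 and 0.49. The phosphatase gene Ptpn4, at 0.55, and Gopc, which encodes a PDZ protein of the Golgi, at 0.45, passed as deposited (limma adjusted p = 0.0319 and 0.0158). Neither passed after median centring (limma adjusted p = 0.0742 and 0.0637). After quantile normalization Ptpn4 missed the threshold and Gopc passed (limma adjusted p = 0.0563 and 0.0441). Becn1, an autophagy gene, was at -0.07 (adjusted p = 0.649).

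The C1q-like genes are relatives of the cerebellins whose secreted products bind the adhesion receptor Adgrb3. Of the 5 genes 2 were lower and 3 did not pass, with a median log2 difference of -0.25. C1ql3, which is expressed in forebrain neurons, read 9.51 and 9.41 on the arrays titled saline and 8.13 and 8.14 on those titled ketamine, a difference of -1.32 (adjusted p = 0.000203 from limma). C1ql2 was at -0.65 (adjusted p = 0.0036). C1ql1, the ligand that climbing fibres release onto Purkinje cells, was at -0.14 (95% interval -0.51 to 0.23), and it read 6.19 and 6.32 against 5.90 and 6.33, so that its groups overlapped. C1ql4, at -0.25, passed only after quantile normalization or median centring (adjusted p = 0.0268 and 0.0350), and Adgrb3 was at 0.24 (adjusted p = 0.149). Over the 15 measured genes of the 3 lists 4 were higher, 5 lower and 6 did not pass, beside the 23.4% and 9.71% of all rows that were higher and lower.

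**Figure D2:**
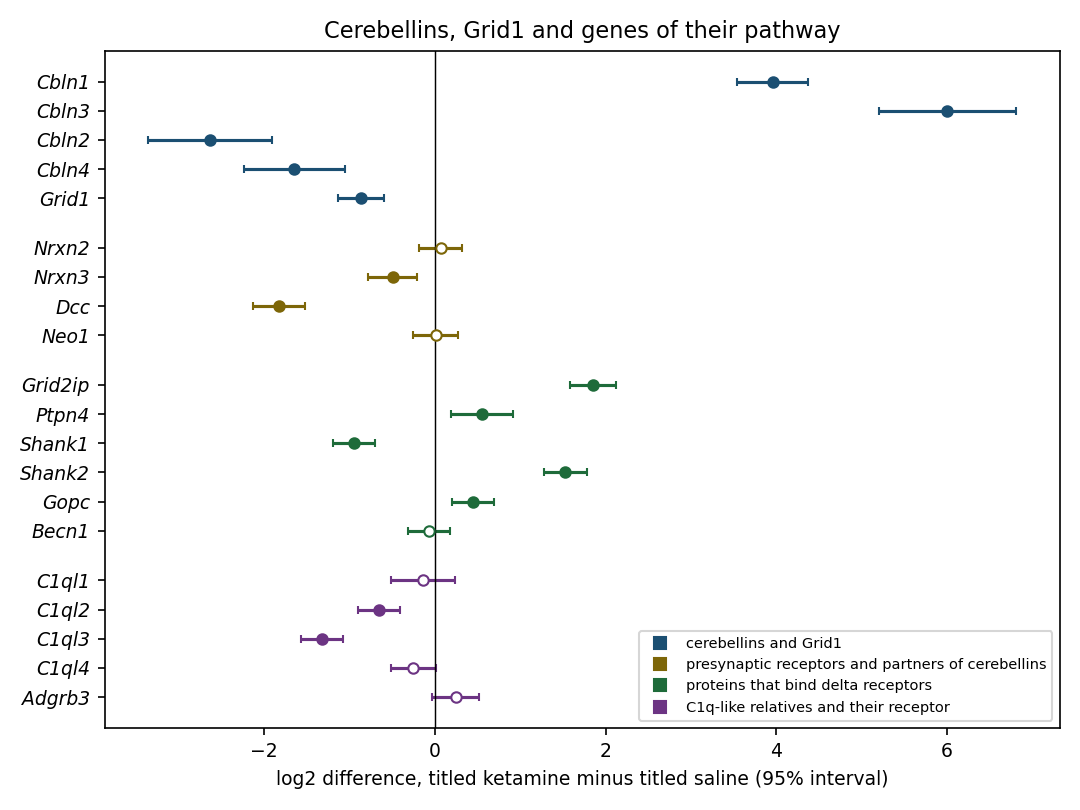
Log2 difference between the arrays titled ketamine and those titled saline (x axis), with the 95% interval from limma, for the cerebellins, Grid1 and 15 genes of 3 pathway lists (y axis). Filled points passed an adjusted p of 0.05; Cbln3 and Cbln1 lie at 6.01 and 3.96, to the right of all other genes shown, and Cbln2 lies farthest to the left at -2.64.

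The members also differed in which pair of arrays disagreed. Cbln1 and Cbln3 were spread on the arrays titled saline, where array 1 was above array 2 by 0.547 and 1.23, and these gaps were larger than those of 98.0% and 99.97% of all rows. On the arrays titled ketamine their gaps were 0.0198 and 0.0390. Of the granule cell markers 6 of 10 were higher on titled saline array 1, with a median difference between the arrays of 0.086, and of the Purkinje cell markers 6 of 6, with a median of 0.22. Of the thalamus markers 5 of 6 were higher there too, with a median of 0.19. The widest of these gaps belonged to Gabra6, at 6.73 and 3.28, and Car8, at 7.81 and 6.37. The part of these lists in the spread of Cbln1 and Cbln3 was not tested.

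Cbln2 and Cbln4 were instead spread on the arrays titled ketamine, by more than 99.9% and 99.6% of all rows, with array 2 the higher. On the arrays titled saline their gaps of 0.254 and 0.283 were wider than those of 77.6% and 81.6% of rows. Sst, the neuropeptide of the interneurons in which Cbln4 is known, differed in the same way, at 6.95 and 7.99 on the arrays titled ketamine. The list as a whole did not, since 3 of its 7 markers were higher on array 2, with a median difference of -0.01, and the forebrain projection neuron markers had a median of -0.04, with 2 of 7 higher. All 6 oligodendrocyte markers (median 0.41), 6 of 7 choroid plexus markers (median 0.20) and all 7 microglia markers (median 0.15) were higher on titled ketamine array 2. Cerebellar markers leaned the other way, with 2 of 10 granule cell markers (median -0.13) and 1 of 6 Purkinje cell markers (median -0.20) higher there. Of the thalamus markers 4 of 6 were higher there (median 0.04). The part of these lists in the values of Cbln2 and Cbln4 was not tested. The gaps of Grid1 were smaller, wider than those of 65.4% of rows on the arrays titled saline and of 14.8% on those titled ketamine. On the arrays titled saline all 5 members read higher on array 1.

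**Figure D3:**
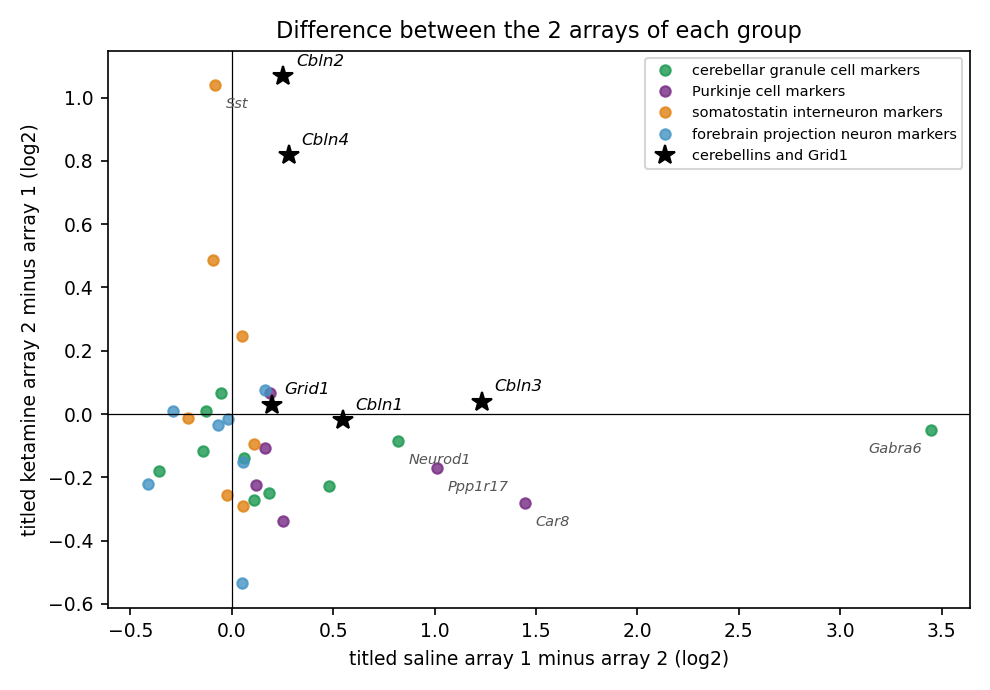
Difference between the 2 arrays titled saline (x axis, array 1 minus array 2) and between the 2 titled ketamine (y axis, array 2 minus array 1), in log2 units, for the cerebellins and Grid1 (stars) and the genes of 4 marker lists (circles). Cbln3 lies to the right at 1.23 and Cbln2 at the top at 1.07, near Sst.

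The genes whose values ran most like each member over the 4 arrays were sought in the 10621 rows with a mean no lower than that of the median row, by the distance between the log2 values of each row after its own mean was removed. Nearest to Cbln1 were Chd7 (distance 0.295), Pcp2, a Purkinje cell gene (0.334), and Fat2, a cadherin of granule cells (0.370). The row of Chd7, a chromatin remodeller, was 1 of 30 that the annotation gives to this gene, whose log2 differences ran from 1.62 to 4.21. Nearest to Cbln3 were the Purkinje cell gene Ppp1r17 (0.493), Arhgef33 (0.571) and Neurod1, a transcription factor of granule cells (1.56). Cbln1 and Cbln3 themselves were 2.11 apart, since Cbln3 moved further.

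For Cbln2 the nearest were Gabrg3, a GABA receptor subunit (0.223), Sst (0.245) and the sodium channel Scn3a (0.321). For Cbln4 they were the glycine receptor subunit Glra2 (0.150), the protocadherin Pcdh19 (0.173) and Rab27b, a GTPase of vesicle release (0.177). All 6 of these genes were higher on titled ketamine array 2 than on array 1, as Cbln2 and Cbln4 were. They were chosen for likeness on these same arrays, so this shared direction adds nothing to the distances. Cbln2 and Cbln4 were 1.00 apart from each other. For Grid1 the nearest were Gnal, the G protein subunit of olfactory and striatal neurons (0.0352), Adgra1 (0.0481) and the immediate early gene Egr3 (0.0569), and Grid1 was closer to Cbln4 (0.966) than to Cbln2 (1.92). Arhgef33, at 3.76 on titled saline array 2, lay below the 95th percentile of the olfactory receptor rows there (4.43). Gabrg3, at 4.36 on titled ketamine array 1, did so too (4.56). Most of the rows passed the filter on the mean only through the group in which they are high. Among them were Chd7, Pcp2, Fat2, Ppp1r17 and Arhgef33, and also Gabrg3, Scn3a, Glra2, Pcdh19 and Rab27b. These distances describe 4 arrays and were not tested.

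**Figure D4:**
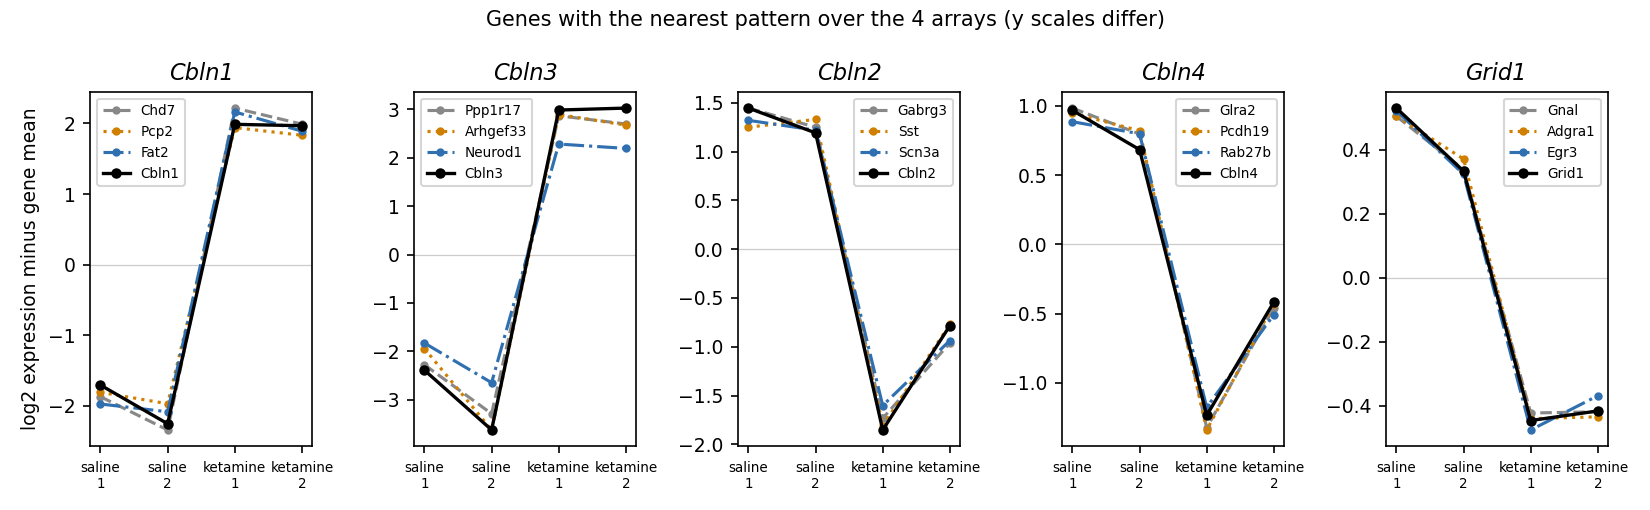
Log2 expression minus each gene's own mean (y axis, with a scale of its own in each panel) on the 4 arrays by title (x axis), for Cbln1, Cbln3, Cbln2, Cbln4 and Grid1 (black) and the 3 genes nearest to each. Cbln1 and Cbln3 step up between the groups, and Cbln2 and Cbln4 step down and part between titled ketamine arrays 1 and 2.

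The genes next to each member on its chromosome, taken from the order of protein-coding genes in RefSeq, went in both directions or did not pass. Beside Cbln1, N4bp1 had a log2 difference of 0.04, which did not pass, and 4933402J07Rik lay below the 95th percentile of the olfactory receptor rows on all 4 arrays. Beside Cbln3, Khnyn was higher by 1.52 (adjusted p = 0.000163 from limma) and Nynrin was at -0.06. Beside Cbln2, Neto1, an auxiliary subunit of kainate receptors, was at -2.93 (adjusted p = 2.71e-05) and Socs6 at 0.35, which did not pass. Beside Cbln4, Dok5 was at -1.07 (adjusted p = 0.00159) and Mc3r, which lay below that percentile on 1 of the arrays, at -0.18, which did not pass. Beside Grid1, Wapl was higher by 0.62 (adjusted p = 0.00871), opposite to Grid1, and 4930596D02Rik lay below that percentile on all 4 arrays. Of these 10 neighbours 4 passed, 2 higher and 2 lower, which is near the 33.2% of all rows.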

How the data were processed

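RNA of 4 mice was measured on 1-colour arrays. The authors deposited log2 values that were made by RMA (background correction, normalization between arrays and 1 value per transcript cluster) with the Affymetrix Expression Console. For this tool the version, and for the annotation the build, were not given in the sources used here. RMA compresses low values and partly removes a shift shared by most genes. Of 35556 rows, 21789 had exactly 1 symbol in the platform annotation, 1621 had several and 12146 none. The rows with 1 symbol were fitted with limma (version 3.58.1, R version 4.3.3) through its functions lmFit and eBayes, with groups by title and Benjamini-Hochberg adjustment over all of them. A gene of a list with several rows was represented by the row with the highest mean. Intervals are 95% intervals from the moderated fit. The fit was tested on simulated data with known differences. The number of arrays limits the precision.

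The members and lists were chosen with earlier results of these data known. The text names every member, every gene of the 3 pathway lists, up to 2 genes of each marker list with the largest difference, and the 3 genes most like each member, with predicted genes passed over. Neurod6, the neighbouring genes and the olfactory receptor rows were named outside this rule. All 5 members matched the RefSeq table by gene number. Some listed items are not reported here.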

Additional observations from a re-analysis of the deposited data

How the results depend on the processing

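Under quantile normalization, median centring, a trend with robust moderation or all rows of the table, all 5 members kept their direction and their call in limma. All 5 also lay past a threshold of 1.3-fold on the deposited values, which involves no test. A filter at the median level kept Cbln2, Cbln3 and Cbln4 through the group in which they are high, so their calls there add nothing. The adjusted p of a member reached 0.0366 at most in these fits, for Cbln2 with trend and robust moderation. With any 1 array left out, the log2 difference ranged from 3.68 to 4.23 for Cbln1, from 5.39 to 6.62 for Cbln3, from -3.17 to -2.10 for Cbln2, from -2.06 to -1.24 for Cbln4 and from -0.96 to -0.77 for Grid1. The count of rows past an adjusted p of 0.05 ranged from 0 to 4574 against 7224 with all arrays, and that of listed genes from 0 to 43 against 51. The counts of 0 came without either array titled ketamine, where 5974 and 6461 rows still had an unadjusted p under 0.05. Such a fit takes the spread of the lone array from the other group. The titles give both groups the numbers 1 and 2. Deviations of same-numbered arrays correlated at only 0.034 over rows. This gives no sign of a pairing shared over the rows, but cannot exclude one in part of them. With the replicate number as a block 8250 rows and all 5 members passed. Among single named genes, no direction turned for a gene with a call.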
